A study of Drosophila melanogaster with 18 samples.

Results

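The genes described here encode the machinery that makes proteins and the ribosomes that carry it out: translation initiation, elongation and release factors, aminoacyl-tRNA synthetases, ribosomal proteins, RNA polymerase subunits and nucleolar proteins. They were chosen by gene symbol among the array probes assigned to a single gene, with earlier results of these data known. The choice gave 70 probes of the 5620 in the table, standing for 66 genes, of which 63 had a ratio in every comparison and 3 did not. By role, the 63 genes were 19 initiation factors, 1 elongation factor, 1 release factor, 12 cytosolic and 6 mitochondrial tRNA synthetases, 4 genes with a ribosomal protein symbol, 10 RNA polymerase subunits, 8 nucleolar proteins and 2 genes caught by their symbol only. Those last 2, Nmda1, of a membrane protein family that restrains cell death, and Nmdmc, an enzyme of mitochondrial folate metabolism, are not part of the growth machinery. The 6 mitochondrial synthetases, whose symbols end in -m, serve translation inside mitochondria.

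Translation begins when initiation factors bring a small ribosomal subunit, the first tRNA and a capped mRNA together. Elongation factors then deliver the charged tRNAs that synthetases have loaded with amino acids, and release factors end the chain at a stop codon. New ribosomes are built in the nucleolus, where RNA polymerase I makes ribosomal RNA and small nucleolar ribonucleoproteins modify it, while RNA polymerase III supplies tRNA and 5S RNA. In flies, as in other animals, nutrient signalling through insulin and the TOR kinase is known to adjust this machinery to the food supply.

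Fruit flies (Drosophila melanogaster) moved to a banana diet were compared with control animals on cornmeal, by hybridising total RNA of both together on 2-colour spotted arrays. The 6 slides formed 3 dye-flip pairs, slides 2 and 3 (pair 1), slides 30 and 29 (pair 2) and slides 28 and 25 (pair 3), in which the first slide named carried banana RNA in channel 1 and the second carried cornmeal RNA there. Each slide held 3 sets of replicate spots, so the table has 18 columns of ratios, each filled for 4860 to 5149 probes. The labels give no strain, stage, sex, age, tissue or duration of the diet, and nothing in them shows whether each pair had its own cultures, so a p-value here reflects only how far these 3 pairs differ, possibly for technical reasons. Each flip pair counted as 1 replicate (n = 3), and precision is limited by the number of arrays.

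Slides with cornmeal RNA in channel 1 were turned in sign, so that all ratios run as on the slides with banana RNA in channel 1. Whether the deposited values are channel 1 over channel 2 or the reverse is not given, and so a positive turned ratio means a higher level on banana in the first case and on cornmeal in the second. No diet is therefore named as the higher one, for any gene. Values are called log2 ratios, although the base of the logarithm was inferred from their range. After turning, the slides of a pair had correlations of 0.45, 0.56 and 0.08 in pairs 1, 2 and 3 across 3742 genes and unnamed probes. These rows had all 18 values in at least 1 probe, and they share the slides and their normalisation. Over all 4722 rows tested, rows with missing spots included, the correlations were 0.21, 0.38 and 0.09. In bulk RNA of this kind, fewer cells of a type and less RNA per cell cannot be told apart.

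No gene of the protein synthesis machinery passed the multiple-testing threshold for the banana-cornmeal ratio. Of the 63, 61, or 96.8%, had a mean ratio under 0.5 in size on the log2 scale, as did 91.6% of all rows tested. The members' mean ratios had a median of 0.04, against 0.00 over all 4722 rows tested, a row being a named gene or an unnamed probe. The median size of the mean ratio, whatever its sign, was 0.10 for the members and 0.13 for all rows, and the median SD between pairs was 0.19 and 0.22. Missing spots were rarer among members, and with all 18 values these gaps were smaller. The 57 such members and 3742 such rows, with all 18 values in at least 1 probe, had median sizes of 0.101 and 0.110. Their median SDs were 0.194 and 0.195. Among them AlaRS kept its mean over 2 probes, of which 1 had 16 values. Of the 63 members, 36 had a positive and 27 a negative mean ratio, and the mean was positive in 50.1% of all rows. Polr3B alone had a mean over 1 in size, which 1.72% of all rows had.

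With limma, 0 of the 63 members passed an adjusted p of 0.05, where 0.0% of all rows did, and the smallest adjusted p of a member was 0.513. An unadjusted p under 0.05 was found for 3 members, or 4.76%, and for 8.09% of all rows, so that the members' share lay below the background. The 3 were the polymerase subunit gene Polr3B and the nucleolar genes Ns2 and Nop17l. The 3 pair ratios shared their sign in 22 members, or 34.9%, and in 30.5% of all rows. One sign on all 6 slides was found for 2 members, or 3.17%, against 6.67% of all rows.

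The fit also bounds the ratios. The 95% confidence interval of the limma fit lay wholly between -1 and 1 for 60 of the 63 members, or 95.2%, and for 86.7% of all rows. Among members and rows with all 18 values the shares were 98.2% and 92.1%. A difference of 2-fold or more in the mean was thus outside the interval for those 60 genes. The exceptions were Polr3B, Polr1H and CysRS. The interval's median distance from the mean to either end was 0.33, so a mean smaller than that usually did not reach an unadjusted p under 0.05. The adjusted threshold was stricter. No row passed it with 3 pairs, although 1.72% of all rows had a mean over 1 in size.

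**Figure D1:**
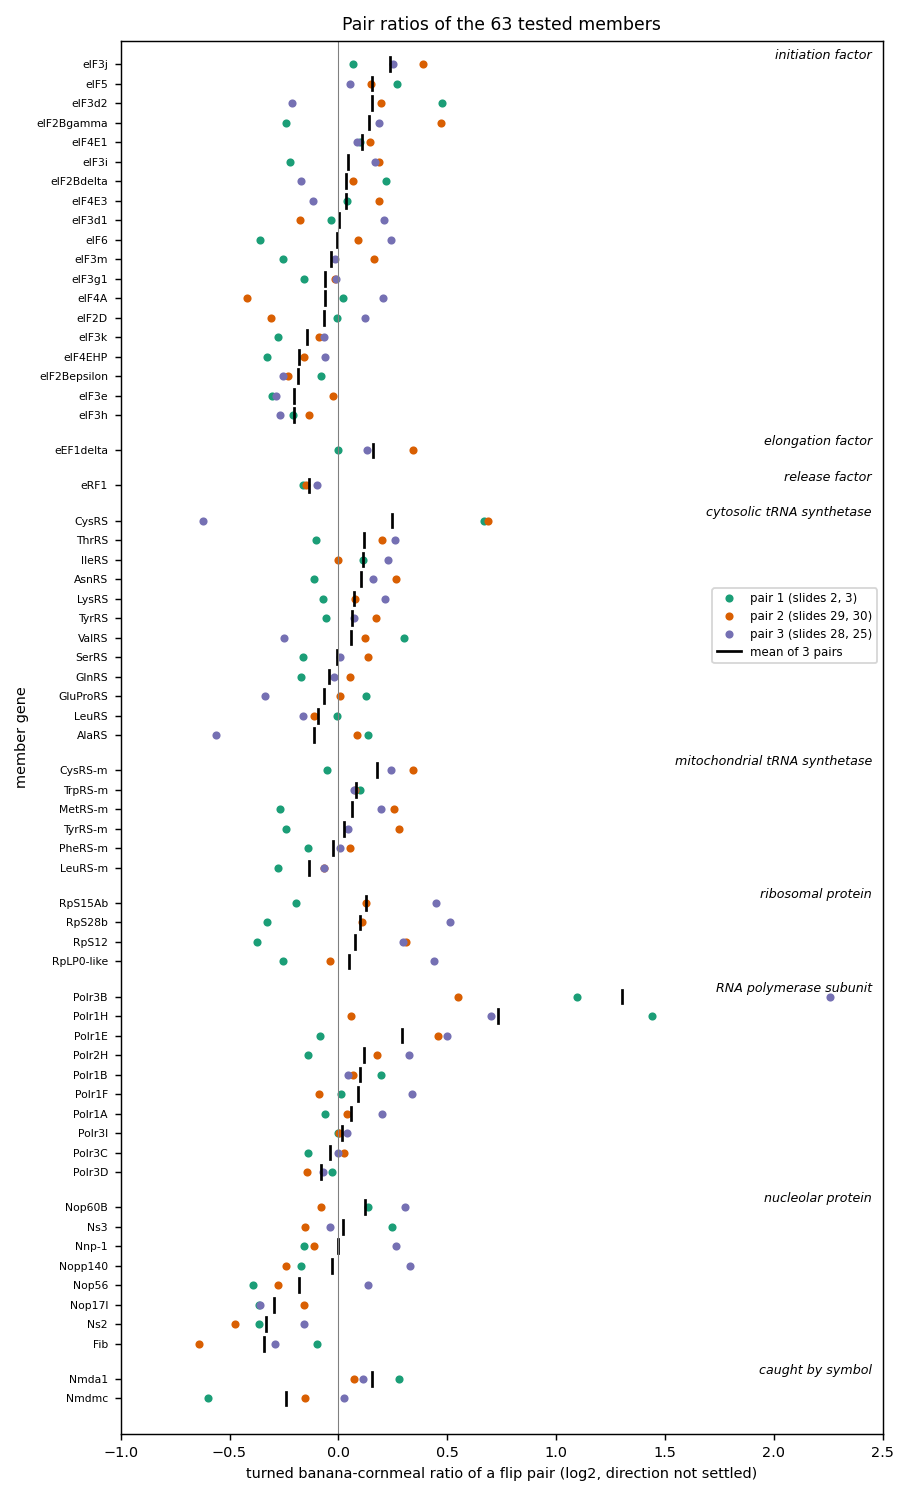
Turned banana-cornmeal ratio (x axis, log2) of each of the 63 tested members (y axis), grouped by role. Coloured points are the 3 flip pairs and black bars are their means. Most members lie within 0.5 of zero in every pair, and Polr3B and Polr1H lie farthest to the right.

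Initiation factors were the largest group. Of 19 genes, 9 had a positive and 10 a negative mean ratio, with a median of -0.01 and a range of -0.20 to 0.24. The smallest limma adjusted p among them was 0.663. Positive ratios in all 3 pairs were found for 3 of the 19 and negative ones for 6, and 15.3% and 15.2% of all rows did the same.

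The eIF3 complex, the many-subunit scaffold that holds the small ribosomal subunit during initiation, was represented by 9 genes. The subunit gene eIF3h had turned ratios of -0.37 and -0.05 on slides 2 and 3, -0.32 and 0.05 on slides 30 and 29, and -1.02 and 0.49 on slides 28 and 25. Every slide with banana RNA in channel 1 was lower than its flip partner, and 2 of the 6 slides were positive. The mean was -0.20 ± 0.07 (SD, n = 3; limma adjusted p = 0.663), so the pairs were close to each other although their slides were not. For eIF3j, a loosely bound subunit that acts at the decoding site, the values were -0.33 and 0.46, 0.24 and 0.54, and -0.04 and 0.53 in the same order. Its mean of 0.24 ± 0.16 (SD, n = 3) was the highest of the initiation factors, with 4 positive and 2 negative slides (limma adjusted p = 0.666). The eIF3e and eIF3k genes stood at -0.20 ± 0.16 and -0.14 ± 0.12 and were, like eIF3h, negative in all 3 pairs. The remaining subunit genes eIF3d1, eIF3d2, eIF3g1, eIF3i and eIF3m had means between -0.06 and 0.15. The genes eIF3d1 and eIF3d2 are paralogues, and a spot may bind the transcript of the other copy, so that their values are uncertain as single genes.

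The cap-binding factors were close to zero. The gene eIF4E1, which encodes the principal cap-binding protein, had slide values of 0.04 and 0.16, 0.09 and 0.19, and -0.10 and 0.26, with a mean of 0.11 ± 0.03 (SD, n = 3). It was positive on 5 of the 6 slides, and its limma adjusted p was 0.804. The paralogue eIF4E3, known for its role in the male germline of the fly, had a mean of 0.04 ± 0.15, and eIF4EHP, which binds the cap but represses translation, had -0.18 ± 0.13. The RNA helicase gene eIF4A, with a mean of -0.06 ± 0.32, was read by 3 probes that did not agree. One of its probes had pair ratios of 0.71, -1.26 and 0.34, while the others lay between -0.35 and 0.25 in every pair.

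The eIF2B complex, which recharges eIF2 with GTP, was represented by 3 subunit genes. The catalytic subunit gene eIF2Bepsilon was negative in all 3 pairs, at -0.19 ± 0.10, while eIF2Bdelta stood at 0.04 ± 0.20. The gene eIF2Bgamma had values of -0.37 and -0.11, 0.28 and 0.66, and 0.01 and 0.37, so that both slides were negative in pair 1 and both positive in pairs 2 and 3. Its mean was 0.14 ± 0.36 (SD, n = 3). Among single-chain factors, eIF5, the GTPase-activating protein of eIF2, was positive in all 3 pairs at 0.16 ± 0.11. The ribosome anti-association factor eIF6 averaged -0.01 ± 0.31 with pair ratios of -0.36, 0.09 and 0.24, and eIF2D, a factor for delivery of tRNA and recycling, averaged -0.07 ± 0.22.

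The elongation and release steps had a single tested gene each. Both slides of pair 2 were positive for eEF1delta, a subunit of the exchange factor of eEF1A, whose values were -0.26 and 0.26, 0.05 and 0.63, and -0.57 and 0.84. Its mean was 0.16 ± 0.17 (SD, n = 3; limma adjusted p = 0.779), and in every pair the slide with banana RNA in channel 1 was the lower one. The stop-codon recognition factor gene eRF1 had -0.09 and -0.23, 0.03 and -0.32, and -0.21 and 0.02. Its mean was -0.13 ± 0.03 (SD, n = 3), with 4 of 6 slides negative (limma adjusted p = 0.768).

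The cytosolic tRNA synthetases covered the loading of 13 amino acids by 12 genes, since GluProRS joins glutamate and proline enzymes in 1 chain. Their median ratio was 0.06, with 7 positive and 5 negative means, a range of -0.11 to 0.24 and a smallest limma adjusted p of 0.818. Only LeuRS had 1 sign in all 3 pairs, at -0.09 ± 0.08. The isoleucine enzyme gene IleRS had slide values of 0.23 and 0.00, -0.51 and 0.51, and -0.19 and 0.65, and its mean was 0.11 ± 0.12 (SD, n = 3). The threonine enzyme gene ThrRS had 0.04 and -0.25, 0.00 and 0.40, and -0.07 and 0.59, with a mean of 0.12 ± 0.20 (SD, n = 3). In both genes the 2 largest values came from slides 29 and 25, which carried cornmeal RNA in channel 1.

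The cysteine enzyme gene CysRS varied most among the synthetases. Its ratios were 0.72 and 0.61 in pair 1, 0.58 and 0.80 in pair 2, and -1.24 and -0.01 in pair 3. The 4 slides of pairs 1 and 2 lay close together and above zero, and both slides of pair 3 lay below it. The 3 spot sets were near each other on slides 2 and 3, from 0.51 to 0.79 after each set was centred on its median, and wide apart on slide 28, from -2.21 to -0.68. The mean over the pairs was 0.24 ± 0.75 (SD, n = 3), with an interval of -0.62 to 1.11. For AlaRS, which had 2 probes, one probe gave pair ratios of -0.20, 0.01 and -1.29 and the other 0.47, 0.15 and 0.16, so that its mean of -0.11 combines probes of opposite sign.

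Among the 6 mitochondrial synthetases the median was 0.04, with 4 positive and 2 negative means. The gene CysRS-m had slide values of 0.03 and -0.14, 0.13 and 0.55, and 0.02 and 0.46, with a mean of 0.18 ± 0.21 (SD, n = 3; limma adjusted p = 0.771). For LeuRS-m the values were -0.01 and -0.54, 0.17 and -0.31, and 0.33 and -0.46, with a mean of -0.14 ± 0.12 (SD, n = 3; limma adjusted p = 0.785). Each slide of LeuRS-m with cornmeal RNA in channel 1 was lower than its partner. Tryptophan enzyme gene TrpRS-m gave pair ratios of 0.10, 0.07 and 0.07, the smallest SD between pairs of the 63 members, although its slides ran from -0.16 to 0.30.

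The 4 genes with a ribosomal protein symbol had small means, and pair 1 was the lowest of the 3 pairs in each. They were the small-subunit genes RpS12, RpS15Ab and RpS28b, together with RpLP0-like, a relative of the yeast assembly factor Mrt4 that resembles a stalk protein. Their mean ratios ranged from 0.05 to 0.13, and the smallest limma adjusted p was 0.87. In pair 1 all 4 were negative and in pair 3 all 4 were positive, with group medians of -0.29, 0.12 and 0.44 in pairs 1, 2 and 3.

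For RpS28b the slides gave -0.45 and -0.22, -0.48 and 0.70, and 0.09 and 0.94, with a mean of 0.10 ± 0.42 (SD, n = 3). The values of RpS15Ab were -0.08 and -0.31, -0.05 and 0.31, and 0.15 and 0.75, with a mean of 0.13 ± 0.32 (SD, n = 3). RpLP0-like had -0.64 and 0.13, -0.40 and 0.32, and 0.13 and 0.75, with a mean of 0.05 ± 0.36 (SD, n = 3). In these 3 genes slide 25 was the highest, and slides 2 and 30, both with banana RNA in channel 1, were negative. RpS12 differed, with -0.14 and -0.60, 0.04 and 0.58, and 0.20 and 0.39, being highest on slide 29 and positive on slide 30, and its mean was 0.08 ± 0.39 (SD, n = 3). The names RpS15Ab and RpS28b belong to genes with close copies elsewhere in the fly genome, so their spots may also bind those copies.

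**Figure D2:**
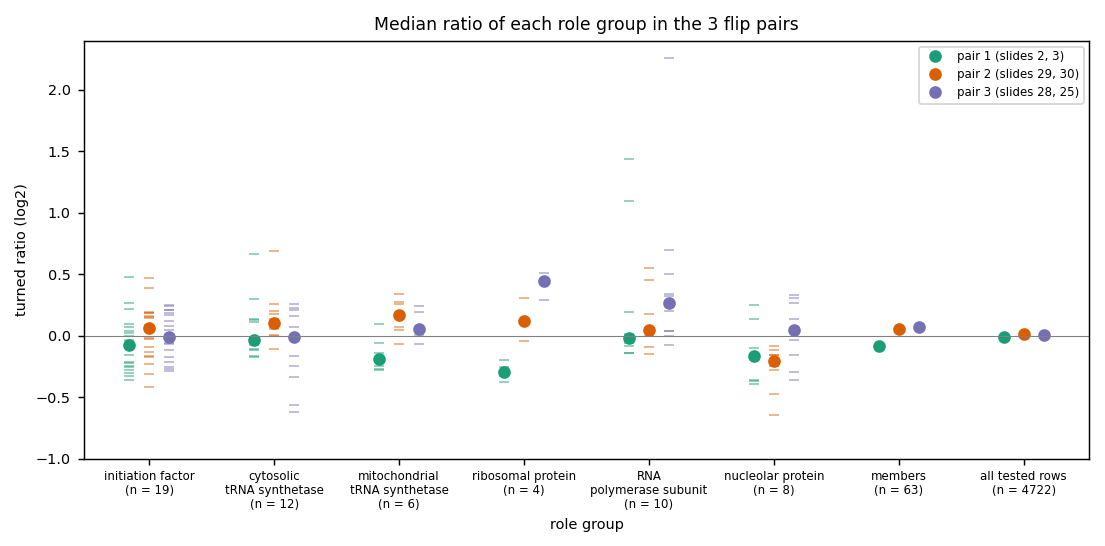
Median turned ratio (y axis, log2) of each role group with at least 4 tested genes, of all members and of all tested rows, in the 3 flip pairs. Dots are medians and short bars are single members. The ribosomal protein group runs from -0.29 in pair 1 to 0.44 in pair 3, while the median of all rows stays near zero.

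RNA polymerase subunits held the largest ratios of the set, and these came from probes with missing spots. Of 10 genes, 8 had positive and 2 negative means, with a median of 0.09. The second-largest subunit gene of RNA polymerase III, Polr3B, had slide values of 4.96 and -2.77, 0.24 and 0.86, and 2.98 and 1.53. Only 9 of its 18 spots had a value, and slides 2, 3, 29 and 28 rested on 1 spot each. On slide 25 its 3 spots ranged from -1.35 to 7.09. The mean was 1.30 ± 0.87 (SD, n = 3), a 2.46-fold ratio, with 5 positive slides and 1 negative (limma adjusted p = 0.513).

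The gene Polr1H, a small subunit of RNA polymerase I that acts in cleavage of the transcript, had 14 of 18 spots. Its slides stood at 1.11 and 1.77, -0.89 and 1.01, and 0.68 and 0.72, of which only slide 30 was negative. The mean was 0.73 ± 0.69 (SD, n = 3; limma adjusted p = 0.64), and the 3 spots of slide 3 ran from 0.32 to 3.85. Polr1E, whose protein belongs to the initiation-linked part of RNA polymerase I, had a value for every spot and slides that agreed within each pair. They were -0.11 and -0.06 in pair 1, 0.52 and 0.39 in pair 2 and 0.50 and 0.50 in pair 3. Its mean was 0.29 ± 0.33 (SD, n = 3; limma adjusted p = 0.716).

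All 5 RNA polymerase I subunit genes had positive means, between 0.06 and 0.73. The catalytic subunit genes Polr1A and Polr1B stood at 0.06 ± 0.13 and 0.10 ± 0.08, and Polr1F at 0.09 ± 0.22. Polr2H, a subunit shared by all nuclear polymerases, had 0.12 ± 0.24. Apart from Polr3B, the RNA polymerase III genes Polr3C, Polr3D and Polr3I lay between -0.08 and 0.01. The median of the pair ratios over the 10 genes was -0.01, 0.05 and 0.26 in pairs 1, 2 and 3.

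Of the 8 nucleolar proteins, 6 had a negative mean, and the median was -0.10. The gene Ns2, a nucleolar GTPase of the nucleostemin family known in yeast for maturing the large subunit, was, beside Nmda1, the only one of the 63 members with 1 sign on all 6 slides. Its values were -0.15 and -0.57, -0.36 and -0.59, and -0.22 and -0.09. Each slide was negative, and the mean was -0.33 ± 0.16 (SD, n = 3), a 1.26-fold ratio with an interval of -0.64 to -0.02 (limma adjusted p = 0.593). Nop17l, related to a chaperone cofactor of nucleolar particle assembly in yeast, had -0.08 and -0.65, 0.01 and -0.33, and -0.26 and -0.46. Of its 6 slides, 5 were negative, and the mean was -0.29 ± 0.12 (SD, n = 3; limma adjusted p = 0.601).

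Outside the rule for named genes, and chosen after its values were seen, Fib, the fibrillarin that methylates ribosomal RNA, had the most negative mean of all members, -0.34 ± 0.28 (SD, n = 3). Its slides were 0.08 and -0.28, -0.34 and -0.95, and 0.35 and -0.93, so that every slide with cornmeal RNA in channel 1 was lower than its partner and 2 slides were positive (limma adjusted p = 0.647). Its partner in the same particle, Nop56, averaged -0.18 ± 0.28, with pair ratios of -0.39, -0.28 and 0.13. The pseudouridine synthase gene Nop60B averaged 0.12 ± 0.19, and Nopp140, a chaperone of these particles, -0.03 ± 0.31. The GTPase gene Ns3 had 0.02 ± 0.21 and Nnp-1, a nucleolar protein of ribosomal RNA processing, -0.00 ± 0.23. In pair 2 all 8 nucleolar genes were negative, with a median of -0.20, while in pair 3 4 were positive and 4 negative, with a median of 0.05. Over all 4722 rows, 2459 were positive in pair 2. A further list of 13 nucleolar genes, given below, had 7 positive in pair 2 and a median of 0.01 there.

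Both genes caught by symbol are given for completeness. Nmda1 had slide values of 0.12 and 0.43, 0.12 and 0.02, and 0.21 and 0.02, all positive, with a mean of 0.15 ± 0.11 (SD, n = 3; limma adjusted p = 0.761). Nmdmc had -0.80 and -0.39, -0.11 and -0.20, and 0.04 and 0.01, with a mean of -0.24 ± 0.32 (SD, n = 3; limma adjusted p = 0.755). Its ratio was negative in pairs 1 and 2 and near zero in pair 3.

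The 3 genes without a ratio in every pair were eIF4H2, eIF2A and the glycine enzyme gene GlyRS. eIF4H2 had a value in 1 column, 0.61 on slide 28 after centring of the spot set. GlyRS had 4 values, averaging 3.51 on slide 2, -2.01 on slide 3 and -0.75 on slide 29. The gene eIF2A had 8 values, averaging 0.93 and 0.11 on slides 2 and 3, 1.12 on slide 30 and 1.55 and -2.31 on slides 28 and 25. In GlyRS and eIF2A the slides of a pair opposed each other in at least 1 pair, and nothing further was computed for these genes.

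**Figure D3:**
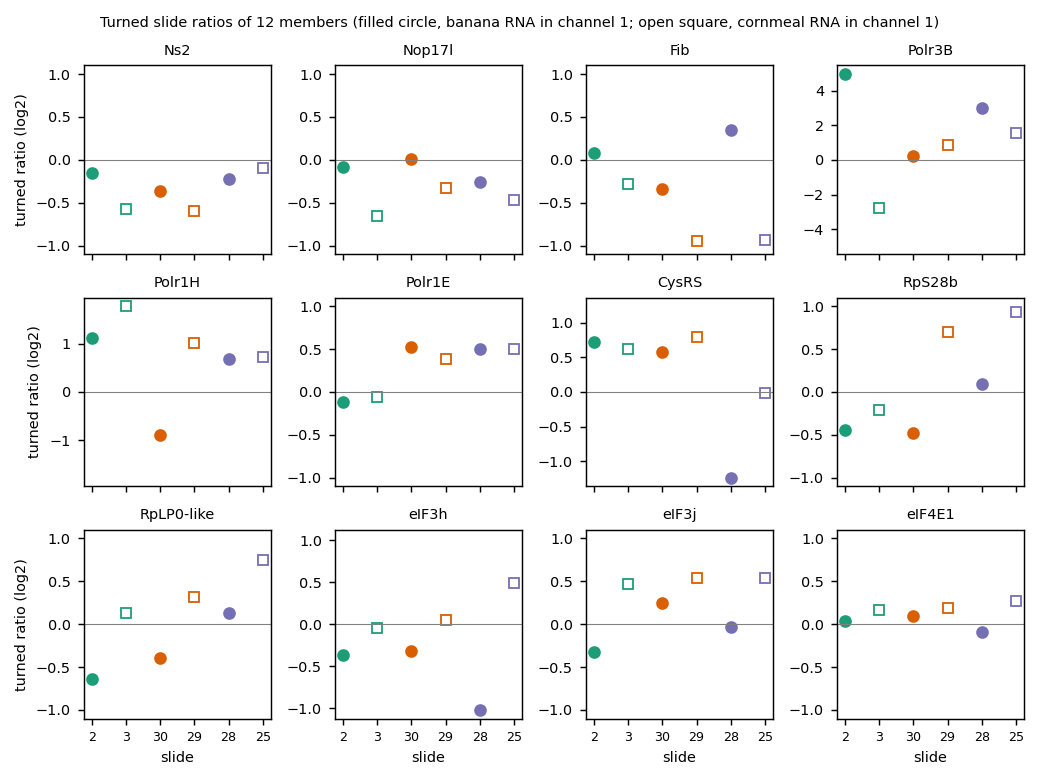
Turned ratio (y axis, log2) on each of the 6 slides (x axis) for 12 members. Filled circles are slides with banana RNA in channel 1, open squares their dye-flip partners, and the scale of the y axis differs between panels. Ns2 is below zero on every slide, Polr1E agrees within each pair, and in Fib, eIF3h and RpLP0-like the partners of a pair lie apart in the same order each time.

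The next comparison asked whether each gene's ratio differed between flip pairs. The yardstick was how far the difference between the slides of a pair varied from pair to pair. A slide difference that was the same in every pair was removed as an effect of orientation. No member passed (limma F test, smallest adjusted p = 0.484), where 0.127% of all rows did. An unadjusted p under 0.05 was found for 1 member, or 1.59%, against 9.28% of all rows. That gene was CysRS, described above with positive slides in pairs 1 and 2 and negative ones in pair 3. The next smallest p-values were those of eIF2Bgamma, RpLP0-like, Polr1H and Polr1E (limma F test, adjusted p of 0.608, 0.611, 0.649 and 0.657). In this test the slides of a pair are repeat hybridisations, so it measures hybridisation noise and not biological spread.

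The order of the pairs seen in the ribosomal protein group was the more frequent one among members. A negative ratio in pair 1 with a positive one in pair 3 was found for 26 of 63 members, or 41.3%, against 28.0% of all rows. The opposite order was found for 8 members, or 12.7%, against 25.8% of all rows. Over all members the median ratio was -0.09 in pair 1, 0.06 in pair 2 and 0.07 in pair 3, and over all rows it was -0.01, 0.01 and 0.00. The members with this order included all 4 ribosomal protein genes, 4 of the 6 mitochondrial synthetases and 5 of the 12 cytosolic ones. Among nucleolar proteins 3 of 8 had it, and among RNA polymerase subunits 3 of 10. In the largest group, the initiation factors, 5 of 19 had it, or 26.3%, close to the share of all rows. Of the further nucleolar genes listed below, which are not members, 8 of 13 had it, or 61.5%. Members share their slides, so these counts are a description with no test.

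The last comparison took up the signal that stayed with a channel when the dyes were flipped, here called the channel component, which is the mean of the unturned ratios of the slides of a pair. It exceeded the banana-cornmeal ratio in size for 40 of 63 members, or 63.5%, against 50.5% of all rows. With limma, 0 members passed the adjusted threshold (smallest adjusted p = 0.524), as did 0.0% of all rows. An unadjusted p under 0.05 was found for 12 members, or 19.0%, against 9.3% of all rows. Of these, 9 were negative and 3 positive, and in all rows 6.08% were negative and 3.22% positive with such a p. The component was negative in 44 and positive in 19 members, with a median of -0.08, where over all rows it was negative in 2602 and positive in 2120, with a median of -0.02. It was negative in all 3 pairs for 24 of the 63 members, a larger share than the 1071 of 4722 rows, or 22.7%, that did so. Without pair 2 the count was 2 members, or 3.17%, against 5.68% of all rows, without pair 3 it was 4, or 6.35%, against 4.47%, and without pair 1 it was 12, or 19.0%, against 18.3%.

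The channel component lay close to the same value in each pair for RpLP0-like. It was -0.38, -0.36 and -0.31 in pairs 1, 2 and 3, while its banana-cornmeal ratios in the same pairs were -0.25, -0.04 and 0.44. The paralogue eIF3d2, with 15 of 18 spots, had channel components of 1.09, 0.66 and 0.44, the mean of 0.73 being the second largest in size among members after 1.43 for Polr3B. In Fib and LeuRS-m it was positive in each pair, with means of 0.38 and 0.30. In eEF1delta and eIF3k it was negative in each pair, with means of -0.42 and -0.41. The other members with an unadjusted p under 0.05 were GlnRS, Polr1F, Polr2H, eIF2Bdelta, eIF3j and RpS28b, all negative, between -0.38 and -0.28.

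Spread between spot sets and between slides was measured in different ways, so their sizes are not compared. The median SD between the spot sets of a slide was 0.13 for members and 0.15 for all probes, after each set was centred. The median absolute difference between the turned slides of a pair was 0.36 for members and 0.37 for all rows. That difference also holds the channel component and is not a measure of slide error alone. Among the 57 members with all 18 values, the turned slides of a pair had correlations of 0.09, 0.10 and -0.24 across genes in pairs 1, 2 and 3. Over all 63 members, those with missing spots such as Polr3B included, the correlations were -0.52, -0.05 and 0.14, of the opposite sign in each pair, and both sets are given as a description only.

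**Figure D4:**
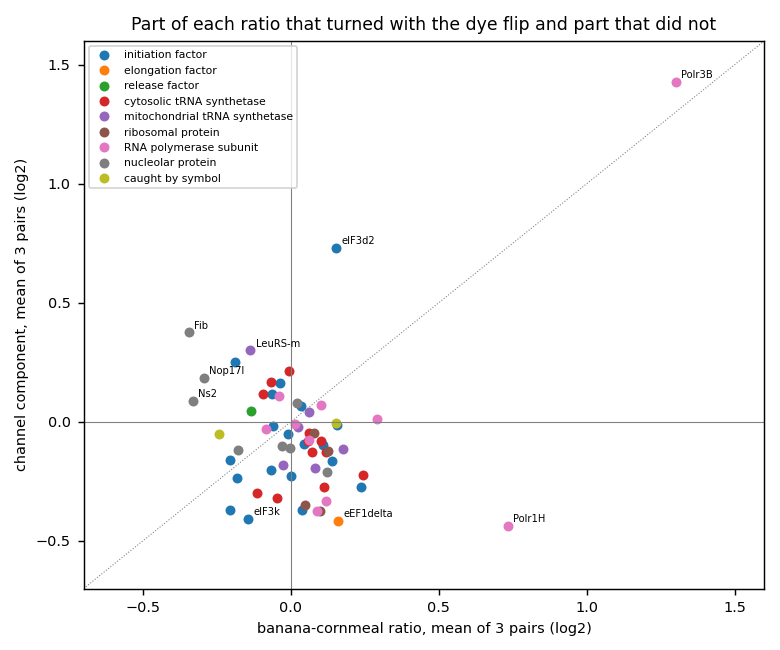
Banana-cornmeal ratio (x axis, log2) against the channel component (y axis, log2) of each of the 63 members, as means of 3 flip pairs, coloured by role. The dotted line marks equal values. Polr3B, Polr1H and eIF3d2 stand apart, and the channel component is the larger in size for 40 of the 63 members.

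Genes that regulate this machinery, listed by name with earlier results of these data known, did not pass either test. Of 32 growth signalling symbols listed, 13 were measured in all pairs, with a median ratio of 0.00, pair medians of 0.02, 0.06 and -0.07, and 0 past the adjusted threshold. An unadjusted p under 0.05 was found for 3 of the 13, or 23.1%, against 8.09% of all rows, and these were Pdk1, REPTOR and gig. Pdk1, which encodes the kinase that activates Akt, had the largest mean, -0.74 ± 0.04, and was negative on 5 of 6 slides (SD, n = 3; limma adjusted p = 0.409). Next was REPTOR, a transcription factor restrained by TOR, at -0.61 ± 0.09 and negative on 6 of 6 slides (SD, n = 3; limma adjusted p = 0.409). The gene gig, which encodes the TOR inhibitor TSC2, had -0.32 ± 0.12 and was negative on 6 of 6 slides (SD, n = 3; limma adjusted p = 0.584), and foxo had 0.18 ± 0.86. For pair differences, 2 of the 13, or 15.4%, had an unadjusted limma F-test p under 0.05, against 9.28% of all rows. They were foxo, with pair ratios of -0.80, 0.85 and 0.47, and Sesn, with 0.53, 0.06 and -0.79. The 13 further nucleolar genes had a median of -0.00. Their pair medians were -0.19, 0.01 and 0.20, and Surf6, a nucleolar ribosome biogenesis gene, was negative on 6 of 6 slides at -0.33 ± 0.10 (SD, n = 3; limma adjusted p = 0.568). An unadjusted limma F-test p under 0.05 for pair differences was found for 3 of these 13, or 23.1%, against 9.28% of all rows. They were pit, Ns4 and l(2)k09022, and Ns4 had pair ratios of -2.78, 0.41 and 1.21. The 7 further translation genes had a median of 0.10 and pair medians of 0.12, -0.06 and 0.02, with pAbp, the poly(A)-binding protein gene, at 0.26 ± 0.60. Among these, pelo, a ribosome rescue factor gene, was positive on 6 of 6 slides at 0.17 ± 0.07, and Paip2, whose protein inhibits the product of pAbp, was negative on 6 of 6 slides at -0.32 ± 0.22 (SD, n = 3; smallest limma adjusted p of the 7 genes, 0.643).

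The labels name no tissue, so markers of tissues that whole flies could hold were read beside these values. All 6 muscle markers had positive means (median 0.42, pair medians 0.67, 0.30 and 0.55), and 4 of the 6 were positive in all 3 pairs. The exceptions were sls, with pair ratios of 0.64, -0.61 and 0.21, and Prm, with 0.78, 0.27 and -0.31. Of 12 muscle symbols listed, 6 were on the array. An unadjusted limma p under 0.05 was found for 4 of the 6, or 66.7%, against 8.09% of all rows. Such a p was found for 1 ovary and germline, 1 neuronal, 0 testis and 0 haemocyte markers. The 5 ovary and germline markers had a median of -0.10, with pair medians of -0.18, -0.14 and 0.01. The other lists held 3 testis, 2 neuronal and 3 haemocyte genes, with medians of -0.10, -0.25 and 0.19. Their pair medians were -0.26, -0.11 and 0.09 for testis, -0.42, -0.18 and -0.16 for neurons, and 0.06, 0.33 and -0.30 for haemocytes. In the array's annotation, 0 of the larval fat body and salivary gland genes listed were found. None of the markers passed the adjusted threshold, and their part in the members' ratios was not tested.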

How the data were processed

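The deposited table held, for each of 5620 probes, 18 columns of log2 ratios of the channels of a slide, with the base inferred from the lowest value, -16.02, whose size is above the 11.09 that a 16-bit scan could give in natural logarithms. It is also just beyond the 16.00 that such a scan could give in log2, so log2 is an inference and not a stated base. The authors' scanning, background correction, filtering and normalisation are not given in the sources used here, and channel intensities were not used. Genes were named from the platform annotation, and the symbols of all 66 members matched the RefSeq table. Coordinates are left out because the probes' build is not named.

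A slide's value was the mean of its 3 spot sets less the slide median, a probe counted in a pair only with a value on both slides, and probes of 1 gene were averaged. Slides with cornmeal RNA in channel 1 were turned, and the slides of a pair were averaged, the pairing being that named in the labels. Within a slide the set medians spanned 0.278 to 0.96, so a mean over incomplete sets carries an offset. Over 4722 rows, limma 3.58.1 (lmFit, eBayes; R 4.3.3) tested the 3 pair ratios against 0 on both sides, and p-values were adjusted by Benjamini-Hochberg and called at 0.05. Pair differences were tested with a limma F test with orientation as a term. The procedure was tested on simulated data. Named genes were the 2 members with the smallest p in each role, members with 1 sign on all slides, the 5 with the smallest F-test p and the 3 with the largest channel component. Other members are named where the text lists a complex or counts calls. Alternatives were the centring, the summary over spot sets, complete rows, single probes, leaving out a pair, no turning and slides as units with or without the pair as a block. The unit of the fits was the pair because the labels name it. The members, lists and tests were chosen with earlier results of these data known. Figures used matplotlib 3.10.9 in Python 3.11.15.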

Additional observations from a re-analysis of the deposited data

How the results depend on the processing

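The channels' brightness is unknown, so how far spots lay above background cannot be said. The count of members past the adjusted threshold stayed at 0 in both tests under every alternative run. The count with an unadjusted p under 0.05 for the banana-cornmeal ratio lay between 2 and 4 under all of them except 1. With no slide turned, as if the authors had already turned the deposited values, it was 12 and the members' median was -0.082. The mean of a pair's unturned slides is the channel component described above, so these values repeat that comparison and are not a separate result. The slides as units with the flip pair as a replicate block gave 4 members with an unadjusted p under 0.05 and 0 past the adjusted threshold. Of all rows, 20 passed with the block and 1 without it, and the estimated correlation within a pair was -0.09. Both settings count the repeat hybridisations of a pair as separate units. A negative correlation also lowers the standard error of the mean, so the 20 rows are given only as an alternative. Leaving out 1 pair moved the members' median between -0.01 and 0.05. For pair differences the count with an unadjusted p under 0.05 was 2 without centring, 2 with the median over spot sets, and 1 to 2 when leaving out 1 pair. Over all rows, 108 passed for pair differences among those with all 18 values, 65 without pair 2, 1 without pair 1, 0 without pair 3, 28 with medians, 14 without centring and 6 in the reported fit. For the channel component the members' count ranged from 2 to 12 when leaving out 1 pair and was 14 among rows with all 18 values. It was 11 with each spot set centred, 10 with medians and 11 without the mitochondrial synthetases and genes caught by symbol, these 3 settings being chosen after seeing the data. The cause of these differences was not tested.

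Of 208 named-gene values under alternatives, 187 kept their sign and none passed the threshold. With no slide turned, each value is the channel component of that gene. With no slide turned the sign changed in CysRS (-0.22), CysRS-m (-0.11), IleRS (-0.27), LeuRS-m (0.30), Nmda1 (-0.0043), Nop17l (0.19), Ns2 (0.088), Polr1H (-0.44), RpLP0-like (-0.35), RpS15Ab (-0.12), RpS28b (-0.38), ThrRS (-0.13), eEF1delta (-0.42), eIF2Bgamma (-0.17), eIF3j (-0.28) and eRF1 (0.045). Leaving out 1 pair at a time gave -0.15 to 0.20 for RpLP0-like, -0.033 to 0.29 for RpS15Ab and -0.11 to 0.31 for RpS28b, each lowest without pair 3, -0.027 to 0.33 for eIF2Bgamma, lowest without pair 2, and -0.0074 to 0.34 for eIF3d2, lowest without pair 1.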
